A study of Mus musculus with 15 samples.

Results

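The nuclear genes for subunits of respiratory complexes II, III, IV and V are described here across perivascular fat of the mouse aorta with and without Prdm16 in adipocytes. The set holds 35 genes out of 43352 in the count table: 4 of complex II, 9 of complex III, the electron carrier cytochrome c (Cycs), 6 of complex IV and 15 of complex V. Members were chosen by symbol, under the older Atp5 names, and matched to Ensembl identifiers. All 35 were found, and all 35 were among the 19645 genes that passed the filter on low counts.

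Poly(A) RNA was sequenced from perivascular adipose tissue (PVAT), the fat around a vessel, of the abdominal aorta (aPVAT) and the thoracic aorta (tPVAT) of mice 11 weeks old. Mice labelled PRDM16flox, AdipoQCre+ (cKO here) carry a Prdm16 allele flanked by loxP sites and a Cre recombinase under the adiponectin promoter, which is active in adipocytes. Mice labelled Prdm16flox (control here) carry the floxed allele without that Cre. Prdm16 encodes a transcriptional coregulator known for driving the thermogenic programme of brown and beige adipocytes. There were 3 libraries of aPVAT cKO (numbers 1, 3 and 4), 4 of aPVAT control, 4 of tPVAT cKO and 4 of tPVAT control. Whether the libraries of a group came from different animals is not stated, and the p-values rest on the spread among libraries, part of which may be technical.

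Complexes II, III and IV pass electrons from succinate and ubiquinol through cytochrome c to oxygen, and complexes III and IV pump protons across the inner mitochondrial membrane. Complex V, ATP synthase, lets protons flow back through a ring of c subunits and makes ATP. Brown adipocytes are known for dense mitochondria with much respiratory chain and, in rodents, little ATP synthase relative to it, because Ucp1 lets protons return without making ATP.

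Library depth was 37761133 to 68735385 counts, smallest in aPVAT cKO 4. Genes of the mitochondrial genome took 13.5% ± 0.308 of counts in aPVAT cKO, 14.4% ± 1.23 in aPVAT control, 29.9% ± 2.38 in tPVAT cKO and 34.6% ± 1.28 in tPVAT control (SD, n = 3, 4, 4 and 4). Prdm16 itself had 14.7 to 18.3 CPM (the gene's counts scaled to a common library size with TMM factors) in aPVAT cKO, against 21.4 to 26.8 in aPVAT control, and 21.2 to 23.8 CPM in tPVAT cKO, against 41.1 to 55.6 in tPVAT control. Its groups did not overlap in either depot, so no library's Prdm16 level went against its label. The log2 fold change of Prdm16 was -0.57 ± 0.11 in aPVAT (SE; edgeR adjusted p = 0.00992) and -1.08 ± 0.10 in tPVAT (edgeR adjusted p = 2.2e-06). Summed CPM of 8 markers of adipocytes (among them Adipoq, Fabp4 and Plin1) was 15689 to 19609 in aPVAT cKO, 15331 to 17671 in aPVAT control, 19003 to 21067 in tPVAT cKO and 15589 to 17112 in tPVAT control, with no marker at 0. Libraries aPVAT cKO 4 and aPVAT control 2 held the largest shares of structural RNA outside the mitochondrial genome, 0.125% and 0.02%, against 0.00399% to 0.0127% in the other 13.

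The 150 bases before the transcription start are shown for 5 members picked by name, with earlier results of these data known. Sdhd and Atp5e had the smallest p of the members in tPVAT, so the 5 are not a blind sample. In tPVAT, as given further on, Sdhd and Atp5e fell in cKO, Atp5g3 rose, and Cycs and Atp5g1 did not pass the test. Sequences are from RefSeq on GRCm38.p6, printed on the gene's strand. Capitals mark matches to 4 motifs searched on both strands: NRF1 (GCGCATGC), GABP and other ETS factors (CCGGAAG), estrogen-related receptors (CAAGGTCA) and YY1 (AAGATGGCG), all of which are known from promoters of respiratory genes. Sdhd, a membrane anchor of complex II, is at chr9:50603850-50603999 (minus strand), and its capitals are a GABP match. Atp5e, the epsilon subunit of ATP synthase, is at chr2:174464102-174464251 (minus strand), also with a GABP match. Cycs is at chr6:50566570-50566719 (minus strand), with an NRF1 match. Atp5g3, one of 3 genes for the c subunit, is at chr2:73911327-73911476 (minus strand), with a match for estrogen-related receptors. Atp5g1, another c-subunit gene, is at chr11:96075632-96075781 (minus strand) and has none of the 4 motifs.
Sdhd: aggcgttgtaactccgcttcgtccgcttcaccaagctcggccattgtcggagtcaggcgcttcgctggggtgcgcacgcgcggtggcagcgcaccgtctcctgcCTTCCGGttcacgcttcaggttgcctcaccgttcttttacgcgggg
Atp5e: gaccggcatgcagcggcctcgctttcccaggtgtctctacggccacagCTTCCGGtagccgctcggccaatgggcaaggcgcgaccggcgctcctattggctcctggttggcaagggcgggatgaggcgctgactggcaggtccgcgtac
Cycs: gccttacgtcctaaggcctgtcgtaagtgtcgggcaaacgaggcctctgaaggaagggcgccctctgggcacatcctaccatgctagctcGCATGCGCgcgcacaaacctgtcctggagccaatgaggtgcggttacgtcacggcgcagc
Atp5g3: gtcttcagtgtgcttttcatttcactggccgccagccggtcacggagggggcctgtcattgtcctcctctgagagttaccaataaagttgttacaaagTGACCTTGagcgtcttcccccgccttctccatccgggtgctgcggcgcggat
Atp5g1: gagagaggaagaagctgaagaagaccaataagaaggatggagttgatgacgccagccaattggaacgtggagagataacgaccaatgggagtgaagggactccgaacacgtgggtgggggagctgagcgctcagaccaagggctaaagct
Sdhd had a second match, to the estrogen-related receptor motif, in the 50 transcribed bases that are not shown. Promoter windows of 300 bases (250 before the start and 50 after it) were at hand for 28 of the 35 members. NRF1 letters were in 7 of the 28 (25%), against 3.05% of 27025 genes with a promoter window. GABP letters were in 10 (35.7%, against 9.93%), those of estrogen-related receptors in 3 (10.7%, against 1.76%) and those of YY1 in 2 (7.14%, against 1.64%). In all, 15 of the 28 members held at least 1 of the 4, against 15.1% of the 27025 genes. Those 27025 were not limited to genes that passed the filter on low counts, as all the members did. A match is a description of letters in the window, and no binding was measured.

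The first comparison asks what loss of Prdm16 in adipocytes does to these genes in thoracic fat. In tPVAT, 30 of the 35 members fell in cKO relative to control and 1 rose (edgeR quasi-likelihood test, Benjamini-Hochberg adjusted p under 0.05). Over all genes tested, 6.61% were lower and 5.44% higher by the same rule. The median log2 fold change of the members was -0.39 (-23.6%), against -0.01 over all genes tested. For 32 of the 35, no cKO library overlapped a control library, which held for 23.2% of all genes tested. The falls were modest in size, from -0.20 (Atp5f1) to -0.62 (Cyc1) on the log2 scale. In whole tissue, fewer cells of a type and less RNA per cell cannot be told apart.

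**Figure D1:**
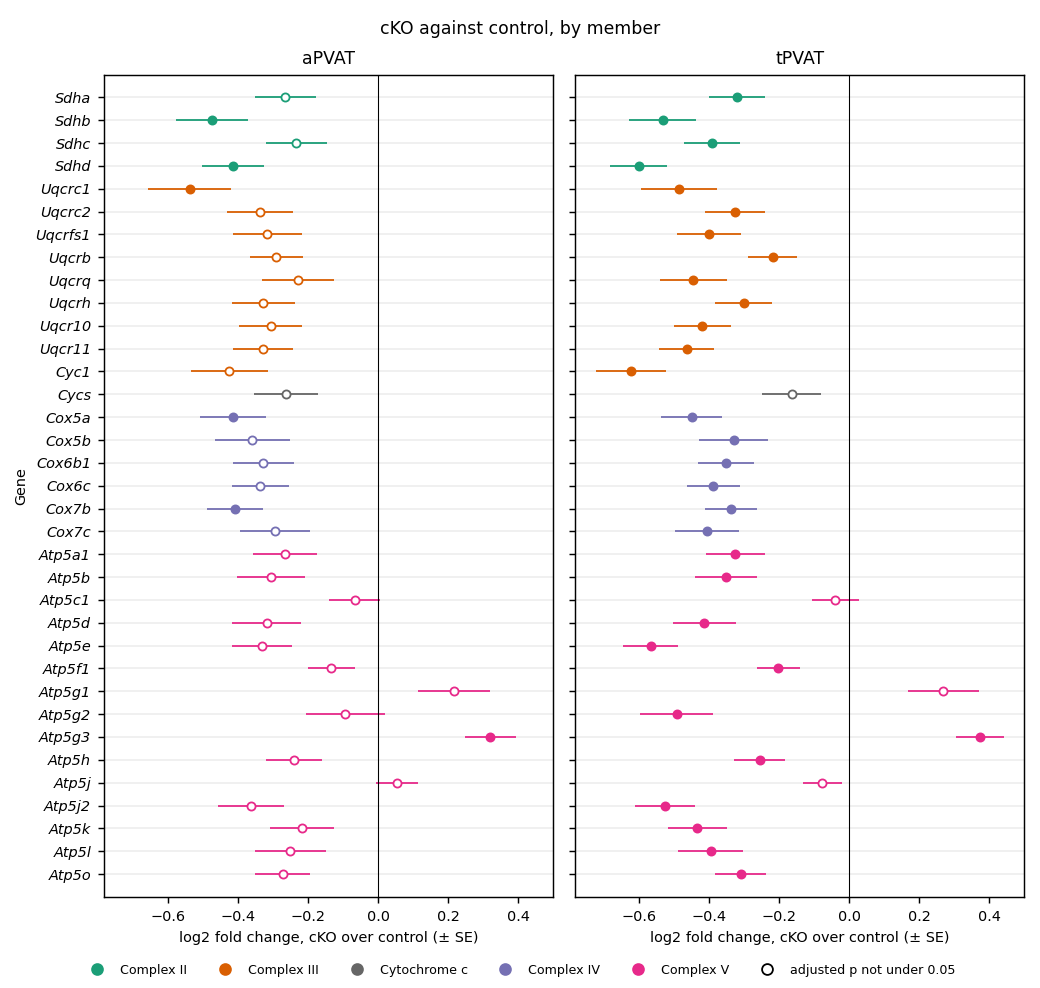
Log2 fold change of cKO over control for each of the 35 members, with its standard error, in aPVAT (left) and tPVAT (right), coloured by complex. Filled points have an adjusted p under 0.05 (edgeR): 5 lower and 1 higher in aPVAT, 30 lower and 1 higher in tPVAT.

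Complex II oxidises succinate and is encoded wholly in the nucleus. On GRCm38 with GENCODE M21 annotation, Sdhd lies at chr9:50596357-50603812 (minus strand), Cyc1 at chr15:76343523-76346260 (plus), Cox7b at chrX:106015700-106022450 (plus), Cycs at chr6:50562563-50566538 (minus) and Atp5e at chr2:174461072-174464105 (minus). Counts are over whole genes, and since CPM grows with transcript length, levels are not compared between genes. All 4 of its genes fell in tPVAT cKO, with a median log2 fold change of -0.46. Sdhd had 354, 327, 349.9 and 361 CPM in tPVAT cKO, against 552, 536, 522 and 502 CPM in tPVAT control. Every cKO library lay far below every control library, and the log2 fold change was -0.60 ± 0.08 (SE; edgeR adjusted p = 0.000139). Sdhb, the iron-sulphur subunit, had 449, 396, 504 and 489.6 CPM in tPVAT cKO, against 688, 650.3, 677 and 645 CPM in tPVAT control. The groups did not overlap, with cKO 2 the lowest library, and the log2 fold change was -0.53 ± 0.09 (edgeR adjusted p = 0.00152). Sdha, the flavoprotein with the succinate site, had 1626, 1485, 1659 and 1716 CPM in tPVAT cKO, against 2096, 1965, 2019 and 2023 CPM in tPVAT control. Its groups were also separate, and its fall was smaller, -0.32 ± 0.08 (edgeR adjusted p = 0.0157). Sdhc, the other membrane anchor, fell by 0.39 on the log2 scale.

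Complex III carries electrons from ubiquinol to cytochrome c. All 9 of its genes fell in tPVAT cKO, with a median log2 fold change of -0.42. Cyc1, cytochrome c1, which hands the electron to cytochrome c, had 392, 345, 415 and 416 CPM in tPVAT cKO, against 613, 606, 616 and 582 CPM in tPVAT control. No library overlapped, and the log2 fold change of -0.62 ± 0.10 was the largest fall of the 35 (edgeR adjusted p = 0.0007). Uqcrc1, a core protein that faces the matrix, had 585, 502, 649 and 662 CPM in tPVAT cKO, against 868, 810.2, 855 and 827 CPM in tPVAT control. The groups were separate with a wide spread within cKO, where library 2 was lowest, and the log2 fold change was -0.49 ± 0.11 (edgeR adjusted p = 0.00725). Uqcrb, a small subunit near the ubiquinone site, had 171, 156, 175 and 177 CPM in tPVAT cKO, against 199, 196, 205 and 190.1 CPM in tPVAT control. These groups were separate but close, and the log2 fold change of -0.22 ± 0.07 was the smallest of the complex (edgeR adjusted p = 0.0496). Among the rest, Uqcr11 (-0.46), Uqcrq (-0.45), Uqcr10 (-0.42) and the Rieske iron-sulphur protein Uqcrfs1 (-0.40) fell by more than Uqcrc2 (-0.33) and Uqcrh (-0.30).

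Cycs encodes the soluble carrier between complexes III and IV. It had 319, 282, 316 and 313 CPM in tPVAT cKO, against 364, 342, 349 and 323 CPM in tPVAT control. All cKO libraries were below all controls, with cKO 1 only just below control 4, and the log2 fold change of -0.16 ± 0.08 did not pass the test (edgeR adjusted p = 0.229).

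Complex IV, cytochrome c oxidase, has catalytic subunits from the mitochondrial genome and small nuclear subunits around them. All 6 nuclear members fell in tPVAT cKO, within a narrow range of -0.33 to -0.45. Cox5a, which faces the matrix, had 214, 204, 241 and 239 CPM in tPVAT cKO, against 309, 303, 315 and 299.6 CPM in tPVAT control. The groups were well separated, and the log2 fold change was -0.45 ± 0.09 (edgeR adjusted p = 0.00257). Cox7b, a small membrane subunit, had 423, 393, 460.3 and 434 CPM in tPVAT cKO, against 544, 554, 567 and 497 CPM in tPVAT control. The groups did not overlap, and the log2 fold change was -0.34 ± 0.07 (edgeR adjusted p = 0.00641). Cox5b, a zinc-binding subunit, had 246, 216, 282 and 284 CPM in tPVAT cKO, against 331, 308, 338 and 314 CPM in tPVAT control. The cKO libraries were spread more widely than the controls and all lay below them, with a log2 fold change of -0.33 ± 0.10 (edgeR adjusted p = 0.0389). Cox7c (-0.41), Cox6c (-0.39) and Cox6b1 (-0.35) also fell.

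Complex V was less uniform: 11 of its 15 genes fell in tPVAT cKO, 1 rose and 3 did not pass the test, with a median log2 fold change of -0.33. Atp5e, in the central stalk, had 95.2, 94.9, 105 and 96.2 CPM in tPVAT cKO, against 142, 156, 149 and 132 CPM in tPVAT control. No cKO library came near the controls, and the log2 fold change was -0.57 ± 0.08 (edgeR adjusted p = 0.000187). Atp5c1, the gamma subunit of the same stalk, had 438, 407, 455 and 451 CPM in tPVAT cKO, against 469, 446, 456 and 429 CPM in tPVAT control. Here the groups overlapped, and the log2 fold change was -0.04 ± 0.07 (edgeR adjusted p = 0.75). The catalytic beta subunit Atp5b (-0.35), the alpha subunit Atp5a1 (-0.33) and the delta subunit Atp5d (-0.41) fell. In the membrane part and the outer stalk, Atp5j2 (-0.53), Atp5k (-0.43), Atp5l (-0.40), Atp5o (-0.31), Atp5h (-0.26) and Atp5f1 (-0.20) fell, and Atp5j overlapped between the groups (-0.08 ± 0.06).

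The 3 genes for the c subunit, Atp5g1, Atp5g2 and Atp5g3, encode the same mature protein behind different import signals, and they did not move together. They lie at chr11:96068852-96075670, chr15:102662864-102672352 and chr2:73908447-73911326, all on the minus strand. Atp5g3 had 199, 212, 197 and 189 CPM in tPVAT cKO, against 154, 157, 155 and 148 CPM in tPVAT control. Every cKO library exceeded every control, and the log2 fold change of 0.37 ± 0.07 made it the only member that rose (edgeR adjusted p = 0.00182). Atp5g2 had 10.04, 8.94, 7.32 and 8.67 CPM in tPVAT cKO, against 12.4, 13.4, 11.9 and 11.5 CPM in tPVAT control. All cKO libraries were lower, and the log2 fold change was -0.49 ± 0.10 (edgeR adjusted p = 0.00543). Atp5g1 had 6.86, 7.23, 6.15 and 6.41 CPM in tPVAT cKO, against 4.83, 6.03, 4.94 and 6.33 CPM in tPVAT control. Control 4 lay above cKO 3, so the groups overlapped, and the log2 fold change of 0.27 ± 0.10 did not pass the test (edgeR adjusted p = 0.0979).

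**Figure D2:**
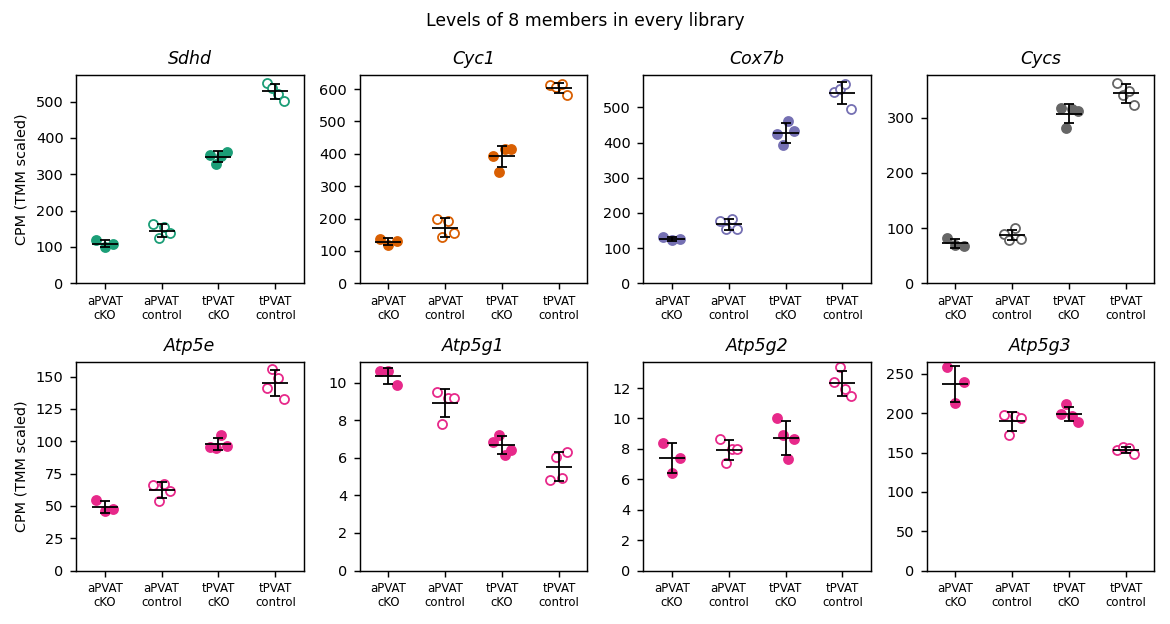
CPM after TMM scaling of 8 members in each of the 15 libraries, with the mean and SD of each group; filled points are cKO, open points control, and each axis starts at 0. Sdhd, Cyc1, Cox7b and Atp5e were lower in tPVAT cKO than in every tPVAT control library, and Atp5g3 was higher.

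Leaving out 1 library at a time left 23 to 30 members lower in tPVAT, and 23 of the 30 kept their call without any 1 library. Uqcrb and Atp5f1 lost it without any of the 8 tPVAT libraries and without aPVAT cKO 1 or aPVAT control 4, and Uqcrb also without aPVAT cKO 4. Atp5h, Cox5b, Uqcrh, Uqcrc2 and Atp5a1 lost it without tPVAT cKO 1 or tPVAT control 1 and, apart from Atp5a1, without other tPVAT libraries. The adjusted p of these 7 was then at most 0.121 (edgeR). The rise of Atp5g3 kept its call without any 1 library. Without the low-count filter, Uqcrb, Atp5f1 and Atp5h also missed the threshold (edgeR adjusted p = 0.0937, 0.0974 and 0.054). With the replicate number as a block, Atp5f1 missed the threshold (log2 fold change -0.20, edgeR adjusted p = 0.0525).

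Markers of other cell types also differed between the tPVAT groups. The summed CPM of 8 heart muscle genes, led by Myh6 and Actc1, was 116, 88.0, 229 and 191 in tPVAT cKO, against 234, 235, 312 and 238 in tPVAT control, with no marker at 0. The groups did not overlap, and 4 of the 8 genes were lower in tPVAT cKO (edgeR adjusted p under 0.05). In tPVAT cKO 3, whose heart muscle sum came nearest to the controls, the mean log2 difference of the 35 members from the tPVAT control mean was -0.26, against -0.46 in tPVAT cKO 2, whose sum was lowest. In aPVAT the sums were 25.6 to 28.1 CPM in cKO, against 23.2 to 27.8 CPM in control. Of 8 adipocyte markers 3 rose in tPVAT cKO and none of the 8 fell, while 3 of 6 endothelial markers fell (sum 706 to 733 CPM in tPVAT cKO, against 799.8 to 897 in tPVAT control). Of 8 thermogenic adipocyte markers 2 fell in tPVAT cKO (Cox8b and Otop1). The sum of the 8 was 5596 to 6826 CPM there, against 8809 to 9541 CPM in tPVAT control. Cox7a1 and Cox8b of this list are themselves complex IV subunits, so the list is not separate from the respiratory genes. Smooth muscle markers summed to 1833 to 2016 CPM in tPVAT cKO, against 2129 to 2801 CPM in tPVAT control, with none of the 6 past the threshold. Skeletal muscle, macrophage and fibroblast markers also had no gene past the threshold in tPVAT, and their sums overlapped between the groups. Among the tPVAT cKO libraries, cKO 2 also had the lowest adipocyte sum (19003 CPM) and the lowest thermogenic sum (5596 CPM). It had the highest smooth muscle sum (2016 CPM) and the highest endothelial sum (733 CPM). The part of other cell types in the result was not tested.

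Other genes of the same complexes and of their assembly were counted from fixed lists. Of 13 further nuclear genes of complexes IV and V, all for subunits except the inhibitor gene Atpif1, 7 fell and 1 rose in tPVAT cKO. Cox8b, a complex IV isoform of brown fat and muscle, fell by 0.78 on the log2 scale, Ndufa4 by 0.49 and Cox6a1 by 0.36. Atpif1, the inhibitor protein of ATP synthase, rose by 0.38 ± 0.07, with 18.0 CPM in tPVAT cKO, against 13.9 CPM in tPVAT control. Of 6 subunits of complexes III to V encoded in mitochondrial DNA, 3 fell (mt-Co3 -0.41, mt-Co2 -0.40 and mt-Cytb -0.38) and the others did not pass, with a list median of -0.35.

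Assembly factors were counted by complex. None of the 4 factors of complex II passed. Of 6 factors of complex III, 2 fell (Uqcc1 -0.46 and Bcs1l -0.26), of 20 tested factors of complex IV 5 fell (Cox17, a copper chaperone, -0.35; Cox10, an enzyme of heme a synthesis, -0.29; Pet100 -0.26; Cmc1 -0.25; Cox14 -0.22), and of 4 factors of complex V 1 fell (Atpaf2 -0.32). The median log2 fold changes of these 4 lists were -0.06, -0.16, -0.13 and -0.20, in the same order. Of 9 genes for supercomplexes and cristae, Apool (-0.37) and Cox7a2l (-0.30), a supercomplex factor, fell. Of 14 general genes of mitochondrial content, 3 fell, among them the citrate synthase gene Cs (-0.32), with a list median of -0.09. The difference between these lists and the 35 members was not tested.

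Among 14 regulators of mitochondrial biogenesis, 2 fell and 1 rose in tPVAT cKO. Ppargc1b, a coactivator of respiratory genes, averaged 31.6 CPM in tPVAT cKO and 51.8 CPM in tPVAT control (log2 fold change -0.71 ± 0.13; edgeR adjusted p = 0.00151). Ppara, a nuclear receptor for fatty acids, fell by 0.41. Esrrb, an estrogen-related receptor, rose by 2.93 ± 0.29 from a low level, with 8.90 CPM in tPVAT cKO and 1.16 CPM in tPVAT control. Esrra, the estrogen-related receptor best known in respiratory gene control, had 95.8 CPM in tPVAT cKO and 122 CPM in tPVAT control and did not pass (-0.35 ± 0.12; edgeR adjusted p = 0.0575).

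The same comparison in abdominal fat gave fewer calls. In aPVAT, 5 members fell in cKO relative to control (Sdhb, Sdhd, Uqcrc1, Cox5a and Cox7b), Atp5g3 rose and 29 did not pass (edgeR), where 0.789% of all genes tested were lower and 0.743% higher. The median log2 fold change was -0.31 (-19.1%), against -0.01 over all genes, and 21 of the 35 had groups that did not overlap, as did 9.56% of all genes. At an unadjusted p under 0.05 there were 30 members, where 12.4% of all genes were. By complex, the median log2 fold change was -0.34 for complex II, -0.33 for complex III, -0.35 for complex IV and -0.24 for complex V.

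Sdhd had 118, 99.4 and 109 CPM in aPVAT cKO, against 162, 124, 156 and 138 CPM in aPVAT control (log2 fold change -0.41 ± 0.09; edgeR adjusted p = 0.0259). Sdhb had 146, 143 and 156 CPM in aPVAT cKO, against 237, 179, 226 and 183 CPM in aPVAT control (-0.47 ± 0.10; edgeR adjusted p = 0.0287). In both genes the cKO libraries were close together and below all controls, and the controls were split, with 2 and 4 low and 1 and 3 high. Sdha had 602, 533 and 633 CPM in aPVAT cKO, against 781, 637, 759.7 and 655 CPM in aPVAT control, and did not pass (-0.26 ± 0.09; edgeR adjusted p = 0.19). Its highest cKO library lay just under control 2.

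Uqcrc1 had 162, 146 and 166 CPM in aPVAT cKO, against 269.8, 194, 253 and 200.2 CPM in aPVAT control, and its log2 fold change of -0.54 ± 0.12 was the largest of the 35 in aPVAT (edgeR adjusted p = 0.0292). Cyc1 had 137, 117 and 132 CPM in aPVAT cKO, against 199, 141, 193 and 155 CPM in aPVAT control (-0.42 ± 0.11; edgeR adjusted p = 0.0734). Both genes had separate groups with the same split among the controls. Uqcrb had 58.1, 51.0 and 57.0 CPM in aPVAT cKO, against 71.8, 62.4, 73.4 and 63.3 CPM in aPVAT control (-0.29 ± 0.08; edgeR adjusted p = 0.0737). Its groups were separate and it missed the threshold. Cycs had 82.2, 68.5 and 67.9 CPM in aPVAT cKO, against 90.04, 79.3, 100.1 and 80.5 CPM in aPVAT control. These overlapped, since cKO 1 was above controls 2 and 4 (-0.26 ± 0.09; edgeR adjusted p = 0.218).

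Cox7b had 132, 122 and 125 CPM in aPVAT cKO, against 178, 154, 183 and 155 CPM in aPVAT control, with the smallest adjusted p of the members in this comparison (-0.41 ± 0.08; edgeR adjusted p = 0.0137). Cox5a had 64.9, 58.7 and 62.7 CPM in aPVAT cKO, against 93.0, 70.9, 91.6 and 75.5 CPM in aPVAT control (-0.41 ± 0.09; edgeR adjusted p = 0.0358). Both were below all controls in every cKO library. Cox5b had 81.1, 75.2 and 79.7 CPM in aPVAT cKO, against 117, 89.5, 108 and 88.6 CPM in aPVAT control, separate but past no threshold (-0.36 ± 0.11; edgeR adjusted p = 0.138).

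Of the c-subunit genes, Atp5g3 had 258, 213 and 239.7 CPM in aPVAT cKO, against 197, 172, 196 and 194 CPM in aPVAT control (0.32 ± 0.07; edgeR adjusted p = 0.0366). Every cKO library was above every control, as in tPVAT. Atp5g1 had 10.6, 10.6 and 9.87 CPM in aPVAT cKO, against 9.48, 7.83, 9.20 and 9.18 CPM in aPVAT control, separate and higher but past no threshold (0.22 ± 0.10; edgeR adjusted p = 0.409). Atp5g2 had 8.39, 6.44 and 7.41 CPM in aPVAT cKO, against 8.64, 7.07, 7.96 and 7.98 CPM in aPVAT control, and these overlapped (-0.09 ± 0.11; edgeR adjusted p = 0.766). Atp5e had 54.5, 45.8 and 48.0 CPM in aPVAT cKO, against 66.4, 53.9, 67.0 and 61.5 CPM in aPVAT control (-0.33 ± 0.09; edgeR adjusted p = 0.0766). Atp5c1 had 242, 234 and 254 CPM in aPVAT cKO, against 279.6, 235, 267 and 238 CPM in aPVAT control (-0.07 ± 0.07; edgeR adjusted p = 0.739). The last pair overlapped between groups, Atp5e only through control 2.

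None of the aPVAT calls held through every removal of 1 library, and each was lost on removing any of more than 1. All 5 falls lost their call without aPVAT cKO 3, and likewise without aPVAT cKO 4 (edgeR); of the 35 members, without aPVAT control 1 or aPVAT control 3 1 was lower, without aPVAT cKO 1 there were 2, and without aPVAT control 2 there were 15. Without both aPVAT control 2 and aPVAT cKO 4, the pair with the most structural RNA, 9 were lower. The rise of Atp5g3 in aPVAT was lost without any 1 of 11 libraries, among them aPVAT cKO 1 and 4, aPVAT control 2, 3 and 4, and 6 tPVAT libraries. Cox5a was also lost without any 1 of 5 tPVAT libraries, at an adjusted p of at most 0.131 over all libraries left out. With the replicate number as a block, 8 members were lower and none of the 35 higher. DESeq2 gave 16 lower members and 1 higher, and edgeR fitted to the aPVAT libraries alone gave 0 of either. The share of all genes called under each of these settings is not given here. These counts therefore show only how the calls moved with the setting.

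Thermogenic adipocyte markers had a summed CPM of 161 to 224 in aPVAT cKO, against 743 to 1236 in aPVAT control. Of the 8, 5 fell, among them the complex IV subunits Cox7a1 and Cox8b given below. Macrophage markers summed to 365 to 562 CPM in aPVAT cKO, against 535 to 704 CPM in aPVAT control, and none of the 6 passed. The median log2 fold change of these 6 was -0.49, and 5 had an unadjusted p under 0.05 (edgeR), as did 12.4% of all genes. Of 6 fibroblast markers Dpt fell by 0.70 on the log2 scale. The part of these cells in the result was not tested. Among the further subunits, Cox7a1, a complex IV isoform of heart, muscle and brown fat, averaged 2.18 CPM in aPVAT cKO and 22.5 CPM in aPVAT control (-3.35 ± 0.29; edgeR adjusted p = 9.5e-06). Cox8b averaged 50.7 CPM in aPVAT cKO and 101 CPM in aPVAT control (-0.998 ± 0.13; edgeR adjusted p = 0.000364). The other 11 of the 13 further nuclear genes did not pass, nor did any of the 6 mitochondrially encoded subunits or the assembly factors. Ppargc1b (-0.999), Esrrg (-0.86) and Ppara (-0.83) fell among the 14 regulators.

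**Figure D3:**
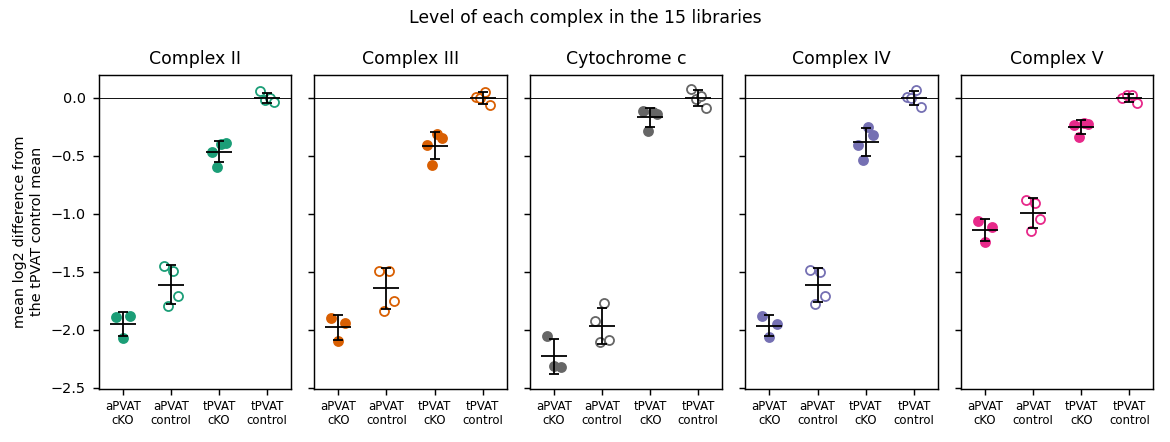
Mean log2 difference of each complex's members from their tPVAT control mean, 1 point per library with the mean and SD of each group; filled points are cKO, open points control. In tPVAT the cKO libraries lie below the controls for every complex, and in aPVAT control libraries 2 and 4 lie nearest to the cKO libraries.

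Whether the effect of the genotype differed between depots was tested as the aPVAT effect minus the tPVAT effect. None of the 35 members passed (edgeR, where 0.784% of all genes did), and neither did any by DESeq2, with 1 member, Atp5g2, at an unadjusted p under 0.05 (8.85% of all genes were). Its log2 fold change was -0.09 in aPVAT and -0.49 in tPVAT, a difference of 0.40 ± 0.15 (edgeR adjusted p = 0.406). With the counts of its near-identical copies added, described further on, the difference was 0.21 ± 0.09 (edgeR adjusted p = 0.522). For Atp5e the difference was 0.24 ± 0.12, and over the 35 members the median difference was 0.06, against -0.01 over all genes. The effect had the same sign in both depots for 34 of the 35 members, Atp5j being the other one, and for 69.1% of all genes tested. A p that misses the threshold does not show that the depots respond alike.

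The depots themselves differed far more than the genotypes. In control mice 33 of the 35 members were lower in aPVAT than in tPVAT and 2 were higher (edgeR), where 27.3% of all genes were lower and 29.3% higher. The median log2 fold change was -1.52 (-65%), against 0.04 over all genes, and no member overlapped between the depots, where 49.5% of all genes did not. In cKO mice 32 were lower, 2 higher and 1 (Atp5g2) did not pass, where 25.4% of all genes were lower and 27.2% higher, with a median of -1.46; 34 of the 35 had groups that did not overlap, against 55% of all genes. These comparisons share libraries with those of the genotype, and their values are given side by side only. The size of the depot difference depended on the scaling, although its direction did not. Summed over the 35 members, TMM-scaled CPM was 6898 in aPVAT control and 19628 in tPVAT control. Scaled to total counts, the sums were 8979 in aPVAT control and 15236 in tPVAT control. Scaled to total counts without the mitochondrial genome, they were 10478 and 23283, in the same order.

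Cycs had the largest difference between depots of the 35: its log2 fold change of aPVAT over tPVAT was -2.08 ± 0.10 in cKO and -1.98 ± 0.09 in control. Thus 67.9 to 82.2 CPM in aPVAT cKO stood against 282 to 319 CPM in tPVAT cKO, although its change with the genotype was past no threshold in either depot. Next in control mice came Cox5a (-1.89), Uqcrc1 (-1.87), Sdhd (-1.86) and Cyc1 (-1.81). By complex the median in control mice was -1.60 for complex II, -1.69 for complex III, -1.67 for complex IV and -1.26 for complex V. Members of complex V spread most widely, and Atp5c1 (-0.82), Atp5g2 (-0.64) and Atp5j (-0.33) had the smallest decreases.

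Atp5g1 and Atp5g3 were higher in aPVAT. Atp5g1 averaged 8.92 ± 0.743 CPM in aPVAT control and 5.53 ± 0.761 CPM in tPVAT control (SD, n = 4 each), a log2 fold change of 0.69 ± 0.10 (edgeR adjusted p = 2.2e-05). Atp5g3 averaged 189.8 ± 12 CPM in aPVAT control and 154 ± 3.99 CPM in tPVAT control (SD, n = 4 each), a log2 fold change of 0.30 ± 0.07 (edgeR adjusted p = 0.0012). In cKO mice the log2 fold changes were 0.64 for Atp5g1 and 0.25 for Atp5g3. In mouse brown fat the level of Atp5g1 is known to affect how much ATP synthase is assembled. Atpif1 was also higher in aPVAT, by 0.33 in cKO and 0.68 in control on the log2 scale. Without aPVAT cKO 1, 1 member rather than 2 was higher in cKO mice, and Atp5j missed the threshold without aPVAT cKO 3 (adjusted p = 0.0724, edgeR).

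Markers of other cells differed between the depots too. Heart muscle markers summed to 23.2 to 27.8 CPM in aPVAT control, against 234 to 312 CPM in tPVAT control, and thermogenic adipocyte markers to 743 to 1236 CPM in aPVAT control, against 8809 to 9541 CPM in tPVAT control. All 6 macrophage markers and 5 of 6 fibroblast markers were higher in aPVAT control than in tPVAT control. Of 8 adipocyte markers 2 were higher and 2 lower. Of 8 skeletal muscle markers 6 were lower and 1 higher (sums of 5.24 to 9.56 CPM in aPVAT control, against 11.97 to 76.4 CPM in tPVAT control), and of 6 endothelial markers 4 were higher and 1 lower. The 14 genes of mitochondrial content were all lower in aPVAT control, with a median of -1.005, and all 6 mitochondrially encoded subunits were lower, with a median of -2.10. The part of cell types in these differences was not tested.

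**Figure D4:**
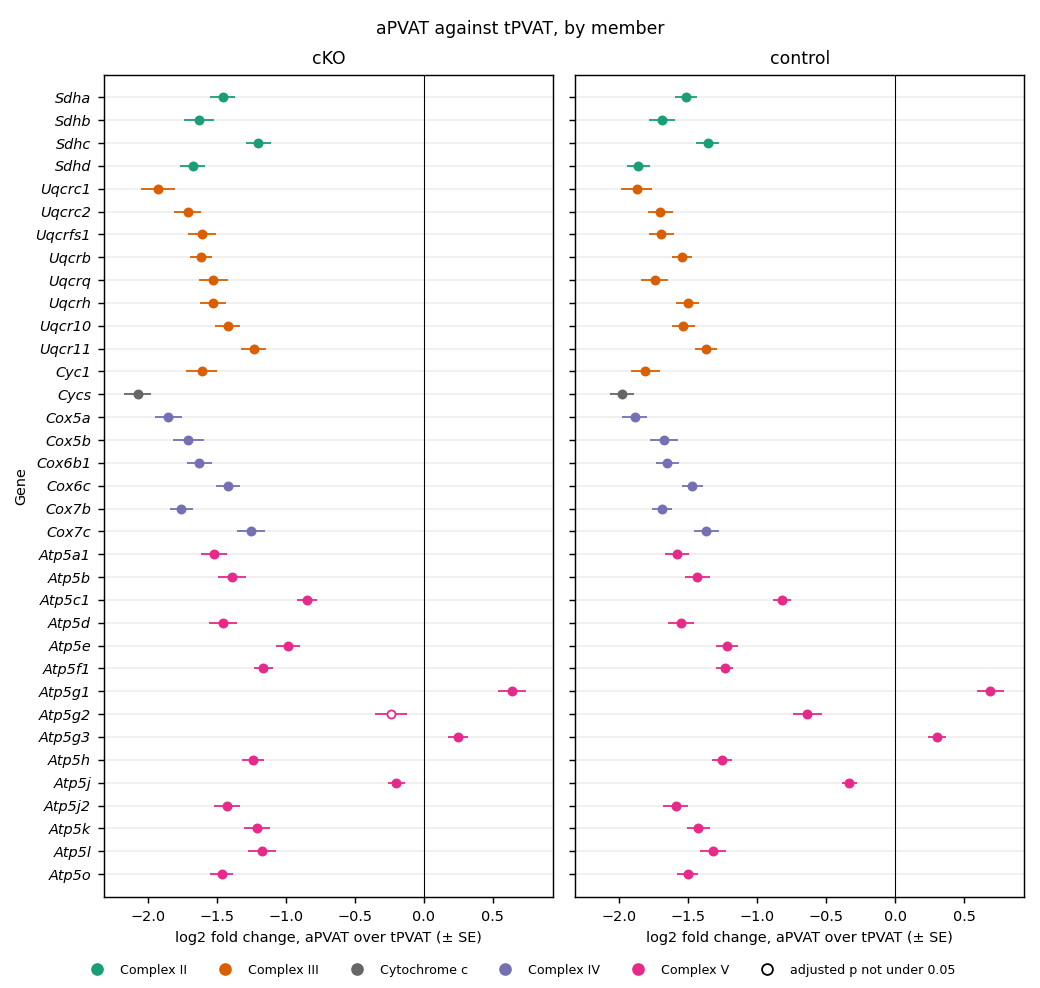
Log2 fold change of aPVAT over tPVAT for each of the 35 members, with its standard error, in cKO mice (left) and control mice (right), coloured by complex. Atp5g1 and Atp5g3 are the only members above 0, and Cycs is lowest in both panels.

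Some members share their sequence with other counted genes. For 10 of the 35, near-identical copies elsewhere in the genome (at least 97% identity over at least 150 bases) held counts of their own, 18 copies in all, which all passed the filter. A copy of Cox5b, Gm11273, is also in the table, with 0 counts. The copies of Atp5g2 held 1100% of the counts of Atp5g2 itself, those of Cox7c 637%, Atp5l 376%, Atp5h 242%, Cycs 205% and Atp5g1 181%. For Uqcrb, Atp5f1, Uqcr11 and Atp5o the shares were 87.9%, 39.1%, 26.8% and 22.2%. How the authors' counting divided reads between a gene and its copies is not given in the sources used here, so the levels of these 10 members are uncertain.

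A stretch of 90 coding bases shows how close the copies are. For Atp5g2 (chromosome 15) it starts at coding base 1, and the copies Gm10175 (chromosome 7) and Gm10231 (chromosome 17) have 0 differences. For Cox7c (chromosome 13) it starts at coding base 18, the copy Gm12338 (chromosome 11) has 0 differences and Gm10012 (chromosome 17) has 2, shown in capitals. The letters are from GENCODE M21 transcripts on GRCm38.
Atp5g2: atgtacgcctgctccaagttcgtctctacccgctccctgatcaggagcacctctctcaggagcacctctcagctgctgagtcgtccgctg
Gm10175: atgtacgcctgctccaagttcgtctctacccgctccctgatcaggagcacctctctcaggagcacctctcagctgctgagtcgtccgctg
Gm10231: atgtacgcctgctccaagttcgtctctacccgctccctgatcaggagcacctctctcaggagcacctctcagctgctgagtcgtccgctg
Cox7c: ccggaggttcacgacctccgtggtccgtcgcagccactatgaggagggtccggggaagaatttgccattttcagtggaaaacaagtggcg
Gm12338: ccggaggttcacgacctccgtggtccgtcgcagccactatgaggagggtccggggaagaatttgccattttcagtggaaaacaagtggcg
Gm10012: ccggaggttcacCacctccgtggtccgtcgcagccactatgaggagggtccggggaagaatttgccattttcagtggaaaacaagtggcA
All 18 copies moved in the direction of their parent gene in both depots. In tPVAT 11 passed the test (edgeR), where 6.61% of all genes tested were lower and 5.44% higher. In aPVAT 1 passed, where 0.789% were lower and 0.743% higher. Reads of a parent may be counted at its copy, so a shared direction is not separate evidence. In tPVAT the median size of the difference in log2 fold change between copy and parent was 0.07. Gm10039, the copy of Atp5g1, rose by 0.33 ± 0.08 in tPVAT cKO, with 12.6 CPM there and 10.02 CPM in tPVAT control (edgeR adjusted p = 0.0102). When the counts of the copies were added to the parent genes, 27 members were lower and 2 higher in tPVAT. Atp5g1 then averaged 19.3 CPM in tPVAT cKO and 15.6 CPM in tPVAT control and passed the test (0.31 ± 0.07; edgeR adjusted p = 0.0117). Atp5g2 averaged 119.7 CPM in tPVAT cKO and 148 CPM in tPVAT control, with a fall of 0.30 in place of 0.49. Uqcrb, Atp5f1 and Atp5h no longer passed (adjusted p = 0.0617, 0.0581 and 0.064, edgeR), and Cycs still did not (-0.21 ± 0.08; adjusted p = 0.109). In cKO mice Atp5g2 became lower in aPVAT than in tPVAT (-0.52; edgeR adjusted p = 1.3e-05).

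**Figure D5:**
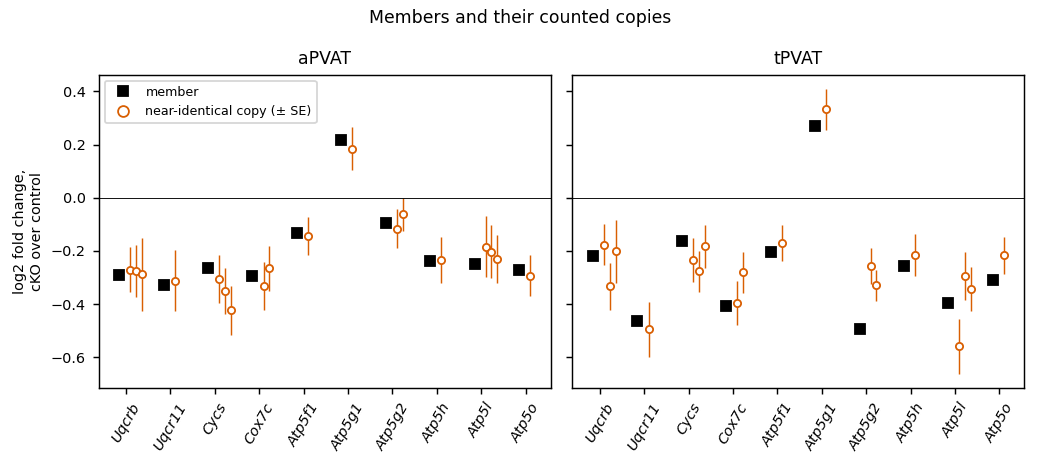
Log2 fold change of cKO over control in aPVAT (left) and tPVAT (right) for the 10 members with counted near-identical copies (squares) and for each of the 18 copies (open circles, with standard error). Every copy lies on the same side of 0 as its parent gene, above 0 only for Atp5g1.

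Among the other 25 members, which have no counted copy, 22 fell and 1 rose in tPVAT cKO. Reads of a neighbour on the opposite strand cannot be told apart if the counting did not use strand. Such neighbours overlap 35.6% of the exon bases of Atp5o, 19.7% of Uqcrc2, 12.8% of Cox5a and 12.7% of Atp5j, which lies beside Gabpa.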

How the data were processed

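RNA from perivascular fat was extracted with TRIzol and RNeasy columns and made into stranded mRNA libraries, per the labels' protocols. The deposited values are raw counts per gene in 15 libraries; per the submitters' processing notes the tools include Salmon, Subread and DESeq2 1.42.1 and the build is mm10. Which tool made the counts, with what annotation and strand setting, is not given in the sources used here. aPVAT cKO number 2 is not analysed here.

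The 35 members, the gene and marker lists and the motifs were chosen with earlier results of these data known. Counts were filtered with filterByExpr (minimum count 10; 19645 of 43352 genes) and TMM scaled. All 15 libraries were modelled jointly, with group (4 levels) as the only term, in edgeR 4.0.16 (R 4.3.3) and tested by quasi-likelihood, with Benjamini-Hochberg adjustment over all genes tested and a threshold of 0.05; the common biological coefficient of variation was 0.142. CPM values use TMM-scaled library sizes, and standard errors were derived from the F statistic. The test was also run on simulated counts drawn independently for each library, which hold no pairing, so that check does not bear on pairing. Depth differed by library (37761133 to 68735385 counts), and intervals are between libraries.

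Values in every library are given for the members with the smallest and largest p of each complex in tPVAT, the smallest p in aPVAT, all members called in aPVAT, Cycs and the Atp5g trio; of other lists, up to 4 genes with the smallest p, and further ones named were chosen after their values were seen. Alternatives were DESeq2 1.42.0, limma 3.58.1, other scalings and filters, each library left out, and replicate blocks. Replicate numbers come from the sample titles. Deviations from group means correlated between same-numbered cKO and control libraries at 0.27, 0.271, 0.396 and 0.107 in tPVAT. In aPVAT the values were -0.213, 0.288 and -0.395. No such value was computed for differently numbered libraries. Deviations cancel out over a group, so the average covariance of those pairs in tPVAT must be negative, below that of the same-numbered pairs. Whether the numbers pair libraries was not tested. With genotype and number together as a random effect, which links the depots, the correlation was 0.0217. The main tests hold no pairing term, and the block by replicate number is an alternative only. Copies were found with blastn 2.17.0 among GENCODE M21 transcripts (identity of at least 97% over at least 150 bases, in blocks of at least 75). Promoter letters are RefSeq's.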

Additional observations from a re-analysis of the deposited data

Results flagged for a closer look

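In groups of 4 libraries, 4 of 105 combinations of member and group had 1 library set apart from the other 3 by more than Dixon's 95% criterion for the gap over the range, which chance gives for about 1 group in 20. Cycs was low in tPVAT cKO 2, at 282 CPM, against 313 to 319 CPM in the other tPVAT cKO libraries. Atp5e was high in tPVAT cKO 3, at 105 CPM, against 94.9 to 96.2 CPM in the other tPVAT cKO libraries. Sdhc was high in tPVAT control 1, at 395 CPM, against 372 to 375 CPM in the other tPVAT controls. Atp5g3 was low in aPVAT control 2, at 172 CPM, against 194 to 197 CPM in the other aPVAT controls.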

How the results depend on the processing

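In tPVAT, leaving out 1 library at a time gave 23 to 30 members lower and 1 higher. Higher members numbered 2 with limma-voom and library weights, and 2 with copy counts added, an alternative chosen after seeing the data. Without the low-count filter 27 were lower. In aPVAT, leaving out 1 library gave 0 to 15 members lower and 0 to 1 higher. Lower members there numbered 16 with DESeq2, 0 with only the groups compared in the fit, 8 with the replicate number as a block, and 9 without aPVAT control 2 and aPVAT cKO 4. Higher members in aPVAT numbered 0 under each of the last 3 of these settings and 0 without the low-count filter; the cause was not tested. Between depots, leaving out 1 library gave 31 to 33 lower and 1 to 2 higher in cKO mice, and 33 lower and 2 higher in control mice. The replicate block left 29 members lower in tPVAT and changed no count of calls between depots. The share of all genes called under these alternatives is not given here, so their counts have no background beside them. No result reversed; among values of single genes, 34 crossed into the threshold, 100 out of it and 3401 stayed on their side.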
